A study of Mus musculus with 14 samples.

Results

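Interferon response genes are the genes that cells switch on when an interferon binds its receptor. A set of 41 such genes was read in the left ventricles (LV) of 14 male mice, 1 microarray per mouse, and 37 of them could be measured among 19937 genes in all. The genes are known targets or factors of the interferon pathways, listed by name with earlier results of these data known, and each was read from the probe set that carried its symbol alone and had the highest mean over the 14 arrays. Isg15, Gbp2 and Igtp were found only on probe sets that carried several gene symbols, Ifi44 was not listed for any probe set, and no value is given for these 4. The mice were wild type (WT) or carried a systemic knockout of the chemokine receptor CXCR5 (CXCR5-/-), an allele made in ES cells of another strain in which a neomycin resistance gene took the place of the Cxcr5 coding region, and which was then backcrossed to C57BL/6. Both genotypes had the C57BL/6 background. Aortic banding (AB), a ligature round the ascending aorta that loads the LV with pressure, was set for 3 weeks in 4 WT and 4 CXCR5-/- mice, and 3 WT and 3 CXCR5-/- mice had the same operation with no constriction (Sham). The age of the mice is not given in the sources used here. WT mice came from a commercial breeder, so litter and housing may differ between the genotypes in ways that cannot be told apart from the allele.

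Type I interferons (the alpha family and beta) are made by almost any cell that detects foreign or misplaced nucleic acid. Their receptor activates a complex that holds Stat2 and Irf9 and binds interferon-stimulated response elements (ISRE) in target promoters. Interferon gamma is made mainly by T and NK cells, and its receptor acts through gamma activation sites (GAS) in promoters. Many genes answer both, so the split used here is one of degree. The type I style genes were the Ifit, Oas and Mx families, which bind or destroy viral RNA or trap viral particles, and other antiviral effectors and modifiers. The interferon-gamma style genes were the GTPases Gbp3, Irgm1 and Iigp1, the chemokines Cxcl9 and Cxcl10, and the antigen processing genes Psmb8, Psmb9 and Tap1. RNA sensors and transcription factors of the pathway were kept as classes of their own. In the heart these genes are known to be made by resident and recruited macrophages and by stromal and muscle cells after injury.

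Levels are given as log2 values, so that a difference of 1 is a doubling of signal, and a gene is said to rise or fall where the Benjamini-Hochberg adjusted p of limma's moderated test over all 19937 genes was under 0.05. Any 2 of the 14 arrays correlated at 0.975 to 0.993 over all probe sets, and the mean of 7 ventricular muscle markers, high in every array and lower after AB as given below, lay between 11.99 and 12.31. Myl7, a light chain of atrial muscle, lay at 9.68 and 8.82 in CXCR5-/- Sham replicates 1 and 2 and at 9.09 in WT Sham replicate 1, against 5.65 to 7.49 in the other 11 arrays, so results are also given without these 3. By the mean of 4 atrial markers, Myl7 among them, CXCR5-/- AB replicate 4 was the highest array (7.45), ahead of these 3 (6.82 to 7.36). That array was kept, so leaving out the 3 did not remove every array with a high atrial mean. The Cxcr5 probe set lay higher in the arrays labelled CXCR5-/- (3.85 to 4.47) than in WT arrays (3.03 to 3.30). Whether its probes lie inside the replaced region is not given in the sources used here, so it does not check the labels, and every genotype direction below rests on them. None of the 37 measured members lies on chromosome 9, which carries Cxcr5. The 5 Oas and Oas-like genes, Cxcl9 and Cxcl10 all lie on chromosome 5, and Ifit1, Ifit2 and Ifit3 on chromosome 19. Mx1 was the only member with a mean level under 4.13, the 30th percentile of all probe sets.

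Promoters of interferon response genes are known for the ISRE. RefSeq windows of 300 bases (250 before and 50 from the transcript start, build GRCm38.p6) were found for 27 of the 37 members (not for Usp18, Mx1, Ifi27, Rtp4, Iigp1, Dhx58, Zbp1, Oas2, Parp14 and Mx2) and searched on both strands for an ISRE core, GAAANNGAAA, and for a GAS, TTCNNNGAA. The ISRE core was held by 15 of the 27 (55.6%) and by 1079 of 27025 genes with a window (3.99%). The GAS was held by 8 of the 27 (29.6%) and by 2582 of the 27025 genes (9.55%). Matches can overlap: 2 cores do so in the windows of Oas1a, Bst2, Irgm1 and Gbp3, and a GAS runs into a core in those of Bst2 and Ifitm3. The stretches printed are those of the called members with the smallest p whose window held a core, 3 of the type I style and, since only Cxcl10 qualified, 1 of the interferon-gamma style. They are written 5′ to 3′ on the strand of the gene, with the ISRE cores in capitals. The stretches of Ifit3, Ifit1 and Cxcl10 end at the last base before the transcript start, and that of Eif2ak2 lies just after it.
Cxcl10 (chr5:92348890-92349122, minus strand): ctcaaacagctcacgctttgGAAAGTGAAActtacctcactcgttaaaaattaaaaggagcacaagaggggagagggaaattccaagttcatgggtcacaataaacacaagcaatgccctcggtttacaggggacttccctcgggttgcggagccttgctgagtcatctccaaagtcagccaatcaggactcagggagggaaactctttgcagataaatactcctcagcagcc
Ifit3 (chr19:34583353-34583528, plus strand): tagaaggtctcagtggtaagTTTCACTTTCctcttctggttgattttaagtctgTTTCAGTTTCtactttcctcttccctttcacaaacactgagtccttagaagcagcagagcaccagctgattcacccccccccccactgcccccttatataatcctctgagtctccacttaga
Ifit1 (chr19:34640765-34640888, plus strand): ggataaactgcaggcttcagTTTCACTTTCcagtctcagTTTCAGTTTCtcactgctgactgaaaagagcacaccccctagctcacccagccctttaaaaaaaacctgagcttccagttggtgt
Eif2ak2 (chr17:78882535-78882564, minus strand): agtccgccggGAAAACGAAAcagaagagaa
Ifit1 and Ifit3, neighbours on chromosome 19, each held 2 cores upstream of the start with the same middle bases, which match on the opposite strand (first bases at -104 and -85 for Ifit1 and at -156 and -122 for Ifit3). Eif2ak2 held a GAS at -178 as well. Cxcl10 held an ISRE core at -213 and no GAS in this window. Among the other members called below, Oas1a, Trim30a, Bst2, Ifitm3 and Ddx58 held a core, and Irf7, Oasl2, Xaf1 and Cxcl9 held neither motif in the window. The windows describe letters only, and binding of any factor was not measured.

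In WT hearts, AB raised 5 of the 37 genes and lowered none. These were Irf7, the factor that amplifies type I interferon production, the antiviral membrane proteins Ifitm3 and Bst2, the chemokine Cxcl10, which draws cells that carry CXCR3, and Rtp4, a chaperone of cell surface receptors that interferons induce. Of all 19937 genes, 5.10% rose and 4.22% fell in the same comparison. The median log2 change of the 37 was 0.15, against 0.011 over all genes, and 29 lay above 0 (52.8% of all genes did). Macrophage markers rose beside them (7 of 12, with a median of 0.56), and no member was called once their mean was a covariate, in a fit that called 26 genes higher and 13 lower in all, against 1016 and 842 without it. The change of Irf7 was as large in that fit (0.61, limma adjusted p = 0.44) as without the covariate, and those of the other 4 were smaller (0.17 to 0.33). With such an adjusted p the fit does not set Irf7 apart from them. In whole tissue, more cells of a type and more RNA per cell cannot be told apart.

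Irf7 lay at 7.17, 7.16 and 7.21 in the WT Sham arrays and at 7.66, 7.84, 7.86 and 7.73 in the WT AB arrays. The WT Sham arrays differed by little from each other and every AB array lay above them, a log2 change of 0.59 (SE 0.10, adjusted p = 0.000855), or 1.51-fold. Ifitm3, which blocks viruses in endosomes, lay at 10.24, 10.22 and 10.34 after Sham and at 11.01, 10.70, 10.78 and 10.70 after AB. Its groups did not overlap, with a change of 0.53 (SE 0.10, adjusted p = 0.0025). Cxcl10 lay at 5.40, 5.51 and 5.03 after Sham and at 5.95, 6.18, 6.19 and 5.93 after AB, with Sham replicate 3 the lowest array. The change was 0.75 (SE 0.16, adjusted p = 0.00683), or 1.68-fold. Rtp4 lay at 7.51, 7.46 and 7.62 and rose to 8.22, 8.20, 8.07 and 7.80, with AB replicate 4 nearest to Sham and a change of 0.54 (SE 0.12, adjusted p = 0.00916). Bst2, or tetherin, which holds budding viruses at the cell surface, lay at 7.88, 7.49 and 7.61 after Sham and at 8.52, 8.49, 8.01 and 7.95 after AB. AB replicates 1 and 2 lay about 0.5 above replicates 3 and 4, and the change was 0.58 (SE 0.16, adjusted p = 0.0324). The calls for Irf7 and Ifitm3 held without any 1 of the 14 arrays. The call for Bst2 ended without WT Sham replicate 2 (adjusted p = 0.157), WT Sham replicate 3 (0.122), WT AB replicate 1 (0.103) or WT AB replicate 2 (0.0915). That for Rtp4 ended without WT Sham replicate 2 (0.0526) and that for Cxcl10 without WT Sham replicate 3 (0.0604), so that 3 members were called with the former left out and 3 with the latter.

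Called or not, 12 of the 37 genes had groups that did not overlap with AB higher (9.39% of all genes), and 1, Iigp1, with AB lower (7.74% of all genes). Iigp1, a GTPase that attacks the vacuoles of intracellular parasites, lay at 7.30, 7.55 and 7.79 in WT Sham and at 6.81, 7.18, 7.08 and 6.79 in WT AB arrays. Every AB array lay under every Sham array, with a change of -0.58 (SE 0.18, adjusted p = 0.057). Its side of the threshold turned with the processing: Iigp1 passed the threshold under 6 of the other settings that leave out no array, with adjusted p from 0.00884 to 0.0483. It also passed without WT Sham replicate 1 (0.0384) and without CXCR5-/- AB replicate 1 (0.00756). Eif2ak2, the kinase PKR that stops translation when it binds viral RNA, lay just outside. It lay at 6.62, 6.49 and 6.50 in WT Sham and at 6.86, 6.91, 6.71 and 6.77 in WT AB arrays, groups that did not overlap, with a change of 0.27 (SE 0.085, adjusted p = 0.0508). The 10 Ifit, Oas and Mx genes had small changes in WT hearts: none was called, 7 lay above 0, their median change was 0.073, and the mean of the 10 per array was 5.49 to 5.62 after Sham and 5.61 to 5.69 after AB. Of the 12 other antiviral effectors, all lay above 0 with a median of 0.31, and 3 were called.

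**Figure D1:**
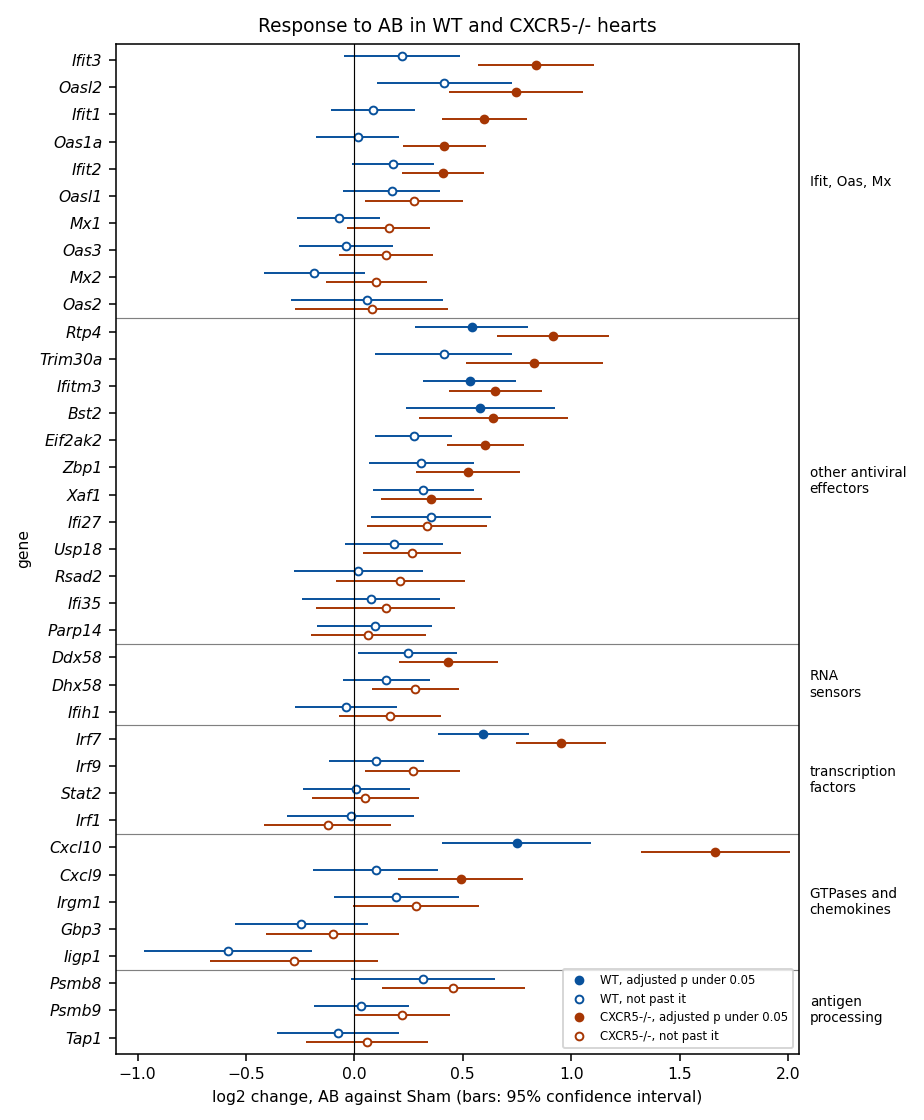
Log2 change from Sham to AB for the 37 measured genes (y axis, by class, ordered by the change in CXCR5-/- hearts) in WT (blue) and CXCR5-/- hearts (brown), with bars for the 95% confidence interval of the fit. Filled points mark an adjusted p under 0.05: 5 in WT and 16 in CXCR5-/- hearts, all to the right of 0.

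In CXCR5-/- hearts, AB raised 16 of the 37 genes and lowered none. All 5 genes that rose in WT hearts were among the 16. Of all 19937 genes, 8.28% rose and 5.86% fell. The median change of the 37 was 0.28, against -0.015 over all genes, and 34 lay above 0 (46.7% of all genes did). The groups did not overlap for 20 genes with AB higher (13.7% of all genes) and for none with AB lower (11.7% of all genes). Of the macrophage markers, 9 of 12 rose, with a median of 0.79, and again no member was called with their mean as a covariate, when only 3 of all genes were called higher and 0 lower. In that fit the changes of Irf7 (0.98), Trim30a (1.10), Eif2ak2 (0.69), Oas1a (0.64), Oasl2 (0.91) and Ddx58 (0.56) were at least as large as without the covariate. Those of the other called members, Rtp4 (0.35) and Ifitm3 (0.21) among them, were smaller. These values are imprecise (limma adjusted p = 0.578 for Irf7, 0.851 for Trim30a and 0.816 for Eif2ak2), so the fit does not set these genes apart from each other.

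The Ifit genes, which bind the ends of viral RNA, rose together. Ifit3 lay at 5.50, 5.24 and 5.55 in CXCR5-/- Sham and at 6.40, 6.30, 6.25 and 6.12 in CXCR5-/- AB arrays, a change of 0.84 (SE 0.13, adjusted p = 0.000213), or 1.79-fold. Its AB arrays lay well clear of its Sham arrays, while in WT hearts the values of 5.97, 5.69 and 5.74 after Sham and 6.11, 6.27, 6.01 and 5.70 after AB overlapped. Ifit1 rose from 5.37, 5.29 and 5.58 to 6.04, 6.11, 5.97 and 5.92, by 0.60 (SE 0.092, adjusted p = 0.000252). In WT hearts Ifit1 lay at 5.75, 5.78 and 5.91 after Sham and at 5.87, 5.92, 5.99 and 5.81 after AB, and these groups overlapped. Ifit2 lay at 6.30, 6.30 and 6.13 after Sham and at 6.79, 6.74, 6.62 and 6.47 after AB, with every AB array above Sham and a change of 0.41 (SE 0.090, adjusted p = 0.00471). The WT arrays of Ifit2 lay at 6.26, 6.31 and 6.34 after Sham and at 6.48, 6.53, 6.43 and 6.50 after AB, also apart, with an adjusted p of 0.274 for the change of 0.18. Probes of Ifit3 may also bind transcripts of Ifit3b, a close copy, whose own probe set rose as well (0.69, SE 0.17, adjusted p = 0.0123).

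Of the Oas genes, whose products make short oligoadenylates that switch on RNase L, Oas1a rose from 5.52, 5.44 and 5.41 to 5.77, 5.72, 6.0 and 5.99 in CXCR5-/- hearts, by 0.41 (SE 0.091, adjusted p = 0.00468). In WT hearts it lay at 5.78, 5.75 and 5.60 after Sham and at 5.75, 5.75, 5.72 and 5.68 after AB, and these groups overlapped (log2 change 0.015, 95% confidence interval -0.18 to 0.21). Oasl2, an Oas-like gene, rose from 6.47, 6.51 and 6.53 to 6.89, 7.16, 7.67 and 7.28, by 0.75 (SE 0.15, adjusted p = 0.00209), with AB replicate 3 highest. Its WT arrays lay at 6.34, 6.78 and 6.83 after Sham and at 6.99, 7.05, 7.04 and 7.18 after AB, apart from each other but with 1 low Sham array (adjusted p = 0.0954). Oas2, Oas3 and Oasl1 and the Mx genes, GTPases that trap viral capsids, were not called, with changes from 0.080 for Oas2 to 0.27 for Oasl1.

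Among the other antiviral effectors, 7 of 12 rose. Rtp4 lay at 7.22, 7.08 and 7.24 in CXCR5-/- Sham and at 7.79, 8.29, 8.25 and 8.04 in CXCR5-/- AB arrays, a change of 0.92 (SE 0.12, adjusted p = 7.61e-05). Eif2ak2 rose from 6.33, 6.39 and 6.48 to 6.92, 7.0, 7.03 and 7.06, by 0.60 (SE 0.085, adjusted p = 0.000108), and its AB arrays lay close together. Trim30a, a member of the TRIM family of ubiquitin ligases, rose from 6.97, 7.42 and 7.41 to 7.75, 7.97, 8.41 and 8.25, by 0.83 (SE 0.15, adjusted p = 0.000997). AB replicates 3 and 4 were its highest arrays. In WT hearts it lay at 7.34, 7.66 and 7.69 after Sham and at 7.84, 7.94, 8.09 and 8.03 after AB (adjusted p = 0.103). Ifitm3 lay at 10.09, 10.17 and 10.18 after Sham and at 10.65, 10.97, 10.87 and 10.70 after AB, a change of 0.65 (SE 0.10, adjusted p = 0.000287), close to that in WT. Zbp1, which senses Z-form nucleic acid and starts necroptosis, rose from 5.15, 5.10 and 5.30 to 5.51, 6.02, 5.77 and 5.53, by 0.52 (SE 0.11, adjusted p = 0.00431). Its WT arrays lay at 5.40, 5.18 and 5.18 after Sham and at 5.59, 5.52, 5.60 and 5.55 after AB, and did not overlap (adjusted p = 0.11). Bst2 (0.64, SE 0.16, adjusted p = 0.0127) and Xaf1, an antagonist of the apoptosis inhibitor XIAP (0.35, SE 0.11, adjusted p = 0.0392), completed the 7. The 5 that were not called, among them Rsad2 (viperin) and Usp18, had changes from 0.063 for Parp14 to 0.34 for Ifi27. The call for Bst2 ended without CXCR5-/- Sham replicate 2 (adjusted p = 0.0886). That for Xaf1 ended without any 1 of 7 arrays, namely WT Sham replicate 2, each CXCR5-/- Sham array and CXCR5-/- AB replicates 1, 2 and 3 (adjusted p from 0.05 to 0.166).

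Irf7 was the factor that moved most: it lay at 7.03, 7.15 and 6.88 in CXCR5-/- Sham and at 7.83, 7.85, 8.08 and 8.12 in CXCR5-/- AB arrays, a change of 0.95 (SE 0.10, adjusted p = 5.52e-06), or 1.94-fold. Irf9 (0.27) and Stat2 (0.050) of the receptor-activated complex, and Irf1 (-0.12), a factor that interferons induce, were not called. Of the RNA sensors, Ddx58 (RIG-I) rose by 0.43 (SE 0.11, adjusted p = 0.011), a call that ended without CXCR5-/- Sham replicate 1 (adjusted p = 0.0703), and Dhx58 (0.28) and Ifih1 (0.16) were not called.

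Cxcl10 had the largest change of the 37 genes in both genotypes. It lay at 4.80, 4.60 and 4.91 in CXCR5-/- Sham and at 6.59, 6.88, 6.19 and 6.09 in CXCR5-/- AB arrays, a change of 1.67 (SE 0.16, adjusted p = 3.39e-06), or 3.17-fold. The lowest AB array lay more than 1 above the highest Sham array. Cxcl9, also a ligand of CXCR3, lay at 5.61, 5.75 and 5.86 after Sham and at 5.83, 6.24, 6.57 and 6.28 after AB. AB replicate 1 lay within the Sham range, and the change was 0.49 (SE 0.14, adjusted p = 0.021). In WT hearts Cxcl9 lay at 5.82, 5.76 and 5.96 after Sham and at 6.04, 5.98, 6.03 and 5.74 after AB, and these overlapped. The Cxcl9 call ended without CXCR5-/- Sham replicate 1 (adjusted p = 0.0936), CXCR5-/- Sham replicate 2 (0.0637) or CXCR5-/- AB replicate 3 (0.0665). The GTPases of the interferon-gamma style had smaller changes: Irgm1 (0.28), Gbp3 (-0.10) and Iigp1 (-0.28) were not called. Nor were the immunoproteasome subunits Psmb8 (0.46) and Psmb9 (0.22) or the peptide transporter Tap1 (0.059). Iigp1 lay at 7.36, 7.63 and 7.56 after Sham and at 6.59, 7.40, 7.42 and 7.54 after AB, with AB replicate 1 far under the rest.

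**Figure D2:**
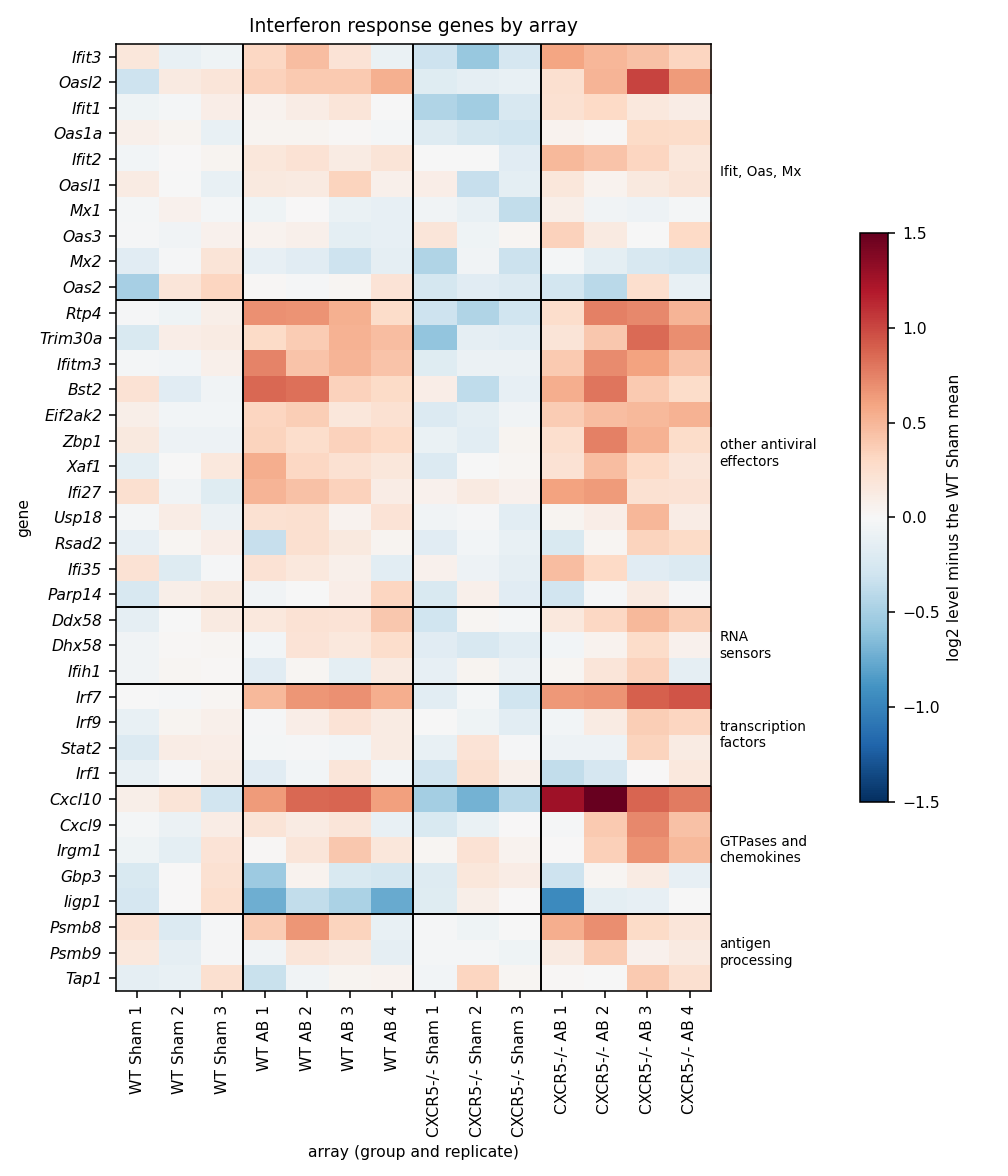
Heat map of the 37 measured genes (rows, by class) in the 14 arrays (columns, by group and replicate); colour gives the log2 level minus that gene's mean in the 3 WT Sham arrays, and values beyond 1.5 take the end colour. Rtp4, Ifitm3, Bst2, Irf7 and Cxcl10 are red in all 8 AB arrays, and most of the Ifit, Oas and Mx rows are blue in the 3 CXCR5-/- Sham arrays.

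Without the 3 arrays with the highest Myl7, which leaves 1 CXCR5-/- Sham array assumed to vary like the rest, 5 members were called in WT and 7 in CXCR5-/- hearts, and over all genes 542 were then called higher in CXCR5-/- hearts in place of 1650. The 7 were Cxcl10, Irf7, Rtp4, Eif2ak2, Ifit3, Ifitm3 and Ifit2. The median change of the members in CXCR5-/- hearts was 0.35 without these arrays.

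Set apart by style, the type I style genes were the more often called in CXCR5-/- hearts only. Of the 22, 12 rose in CXCR5-/- hearts with a median of 0.38, against 2 of 8 of the interferon-gamma style with a median of 0.25. In WT hearts the counts were 3 of 22 with a median of 0.18 and 1 of 8 with a median of 0.065, which are similar shares. Of all genes, 8.28% rose in CXCR5-/- and 5.10% in WT hearts. The difference between the styles was not tested, and 2 of the 3 gamma style calls over the genotypes were of Cxcl10. By class, the mean level of the 12 other antiviral effectors separated AB from Sham in both genotypes: 7.01 to 7.06 in WT Sham, 7.26 to 7.40 in WT AB, 6.89 to 6.94 in CXCR5-/- Sham and 7.27 to 7.49 in CXCR5-/- AB arrays. The mean of the 10 Ifit, Oas and Mx genes was lowest in CXCR5-/- Sham (5.34 to 5.40) and highest in CXCR5-/- AB arrays (5.70 to 5.79), with no overlap between any 2 of the groups except WT Sham and WT AB (5.49 to 5.62 and 5.61 to 5.69). The chemokine and GTPase class overlapped between Sham and AB in WT hearts, at 6.54 to 6.73 and 6.55 to 6.81. Its CXCR5-/- arrays lay at 6.41 to 6.59 after Sham and 6.63 to 7.09 after AB.

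**Figure D3:**
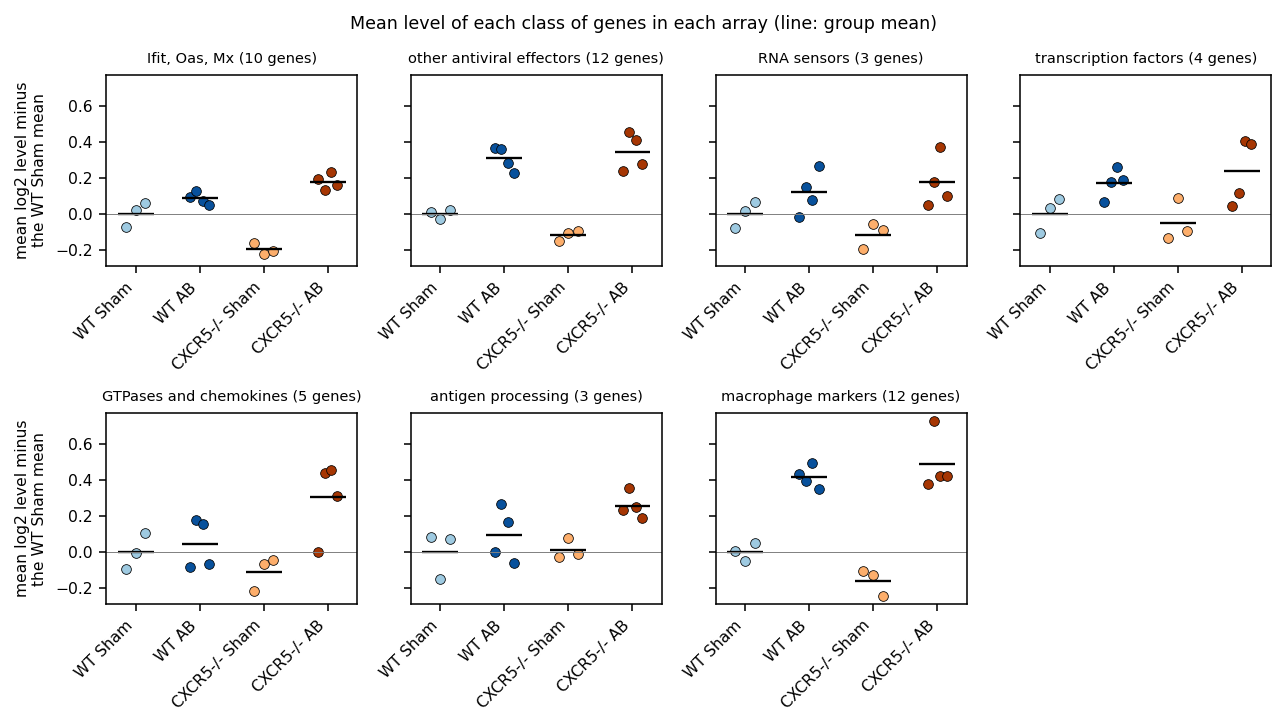
Mean log2 level of each class of genes per array, minus the WT Sham mean (y axis), for the 4 groups (x axis), with 1 point per array and a line at the group mean; the last panel gives 12 macrophage markers on the same scale. The 12 other antiviral effectors and the macrophage markers lie higher in every AB array than in any Sham array of either genotype, and the Ifit, Oas and Mx genes lie lowest in the 3 CXCR5-/- Sham arrays.

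Whether the response to AB differed between the genotypes was tested as the change in CXCR5-/- minus the change in WT hearts. None of the 37 genes passed (0% of all 19937 genes in each direction by limma). At an unadjusted p under 0.05, 7 members had a larger change in CXCR5-/- hearts (1.45% of all genes) and none a smaller change (1.42% of all genes). The difference lay above 0 for 34 of the 37 genes, with a median of 0.19, against 48.0% of all genes and a median of -0.0075. It lay above 0 for all 10 Ifit, Oas and Mx genes (median 0.26) and for 10 of the 12 other effectors (median 0.10), the exceptions being Ifi27 and Parp14. This contrast holds the same arrays as every other comparison here and adds no separate evidence to them.

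The 5 genes with the smallest p for the difference were Cxcl10 (0.92, 95% confidence interval 0.43 to 1.40), Ifit1 (0.51, 0.24 to 0.79), Ifit3 (0.62, 0.24 to 1.0), Oas1a (0.40, 0.13 to 0.67) and Eif2ak2 (0.33, 0.078 to 0.58). The adjusted p was 0.9998 for each. The counts of 5 and 16 called genes are therefore not shown to differ between the genotypes for any single gene. For Ifitm3 (0.12, -0.18 to 0.42), Bst2 (0.060, -0.43 to 0.55) and Xaf1 (0.038, -0.29 to 0.37) the difference was small beside its interval.

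**Figure D4:**
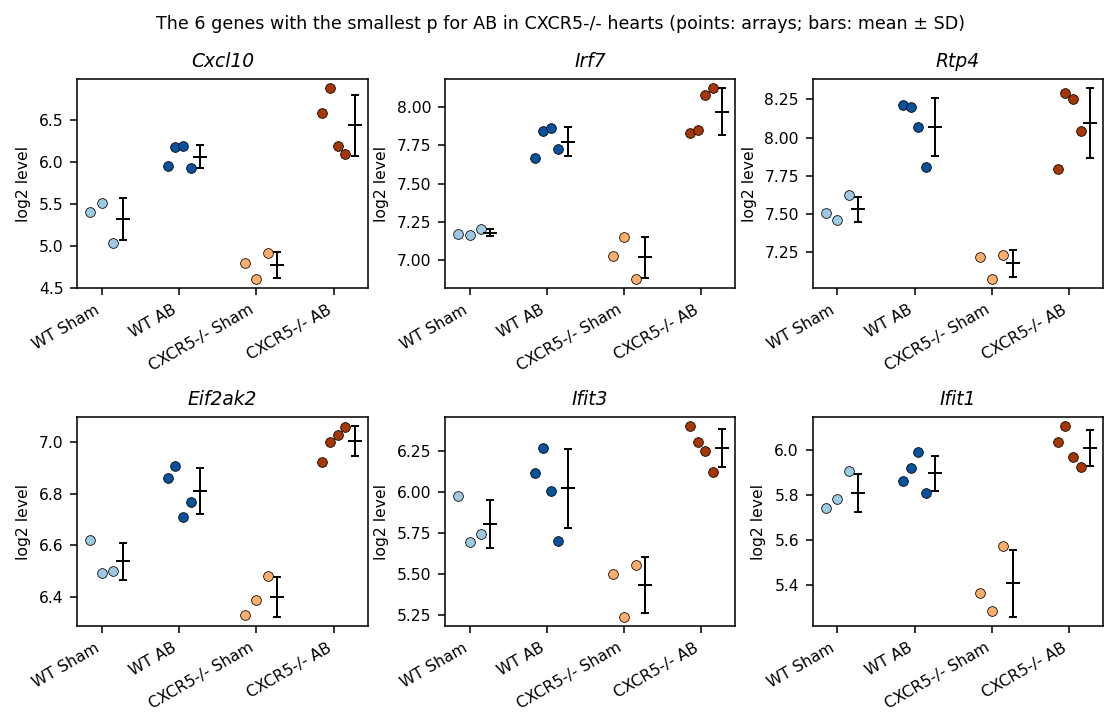
Log2 level (y axis) of the 6 genes with the smallest p for AB in CXCR5-/- hearts, by group (x axis), with 1 point per array and bars for the mean ± SD of 3 Sham or 4 AB arrays. In each panel the CXCR5-/- AB arrays lie above the CXCR5-/- Sham arrays, and the 3 CXCR5-/- Sham arrays are the lowest of all 14.

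The same quantity can be read as the genotype difference after AB minus the genotype difference after Sham. For Cxcl10 the terms were 0.37 after AB and -0.54 after Sham, for Ifit1 0.11 (95% confidence interval -0.068 to 0.29) and -0.40, and for Ifit3 0.25 (-0.0014 to 0.49) and -0.37. After Sham, no member passed the test between CXCR5-/- and WT hearts (0.0201% of all genes were called higher and 0.0201% lower). At an unadjusted p under 0.05 by limma, 6 members lay lower in CXCR5-/- hearts (1.08% of all genes) and none higher (1.30% of all genes). The groups did not overlap for 10 members, all lower in CXCR5-/- hearts (3.57% of all genes), and for none in the other direction (3.28%). The 10 were Ifit1, Ifit3, Oas1a, Mx1, Ifitm3, Rtp4, Eif2ak2, Dhx58, Irf7 and Cxcl10. The median difference was -0.11, and 7 of 37 members lay above 0 (52.4% of all genes did).

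The largest Sham differences were those of Cxcl10 (-0.54, 95% confidence interval -0.91 to -0.17), Ifit1 (-0.40, -0.61 to -0.19) and Ifit3 (-0.37, -0.66 to -0.089). The adjusted p was 0.9999 for each. Ifit1 lay between 5.29 and 5.58 in CXCR5-/- Sham arrays, under all 11 other arrays, of which the lowest was at 5.75. Macrophage markers lay lower as well after Sham: their mean per array was 6.78 to 6.92 in CXCR5-/- and 6.98 to 7.08 in WT hearts, and 11 of 12 lay lower, with a median of -0.21 and none called. With that mean as a covariate the median difference of the 37 members after Sham was -0.070.

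After AB, no member passed the test between the genotypes either (0.0251% of all genes were called higher in CXCR5-/- hearts and 0.0201% lower). At an unadjusted p under 0.05 by limma, 5 members lay higher in CXCR5-/- hearts (3.41% of all genes) and none lower (2.53%). Significance analysis of microarrays, the method the study names, also called no member in either genotype comparison. Eif2ak2 was the only member whose groups did not overlap, with CXCR5-/- higher (1.63% of all genes, and 1.49% with CXCR5-/- lower), at 6.86, 6.91, 6.71 and 6.77 in WT AB and 6.92, 7.0, 7.03 and 7.06 in CXCR5-/- AB arrays. Its difference was 0.19 (95% confidence interval 0.027 to 0.36, adjusted p = 0.744). The largest differences were those of Cxcl10 (0.37, 0.054 to 0.69), Cxcl9 (0.29, 0.020 to 0.55) and Iigp1 (0.27, -0.086 to 0.63), all chemokines or GTPases of the interferon-gamma style. All 8 interferon-gamma style genes lay above 0, with a median of 0.21, and 16 of the 22 type I style genes, with a median of 0.062. The median over the 37 was 0.11.

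**Figure D5:**
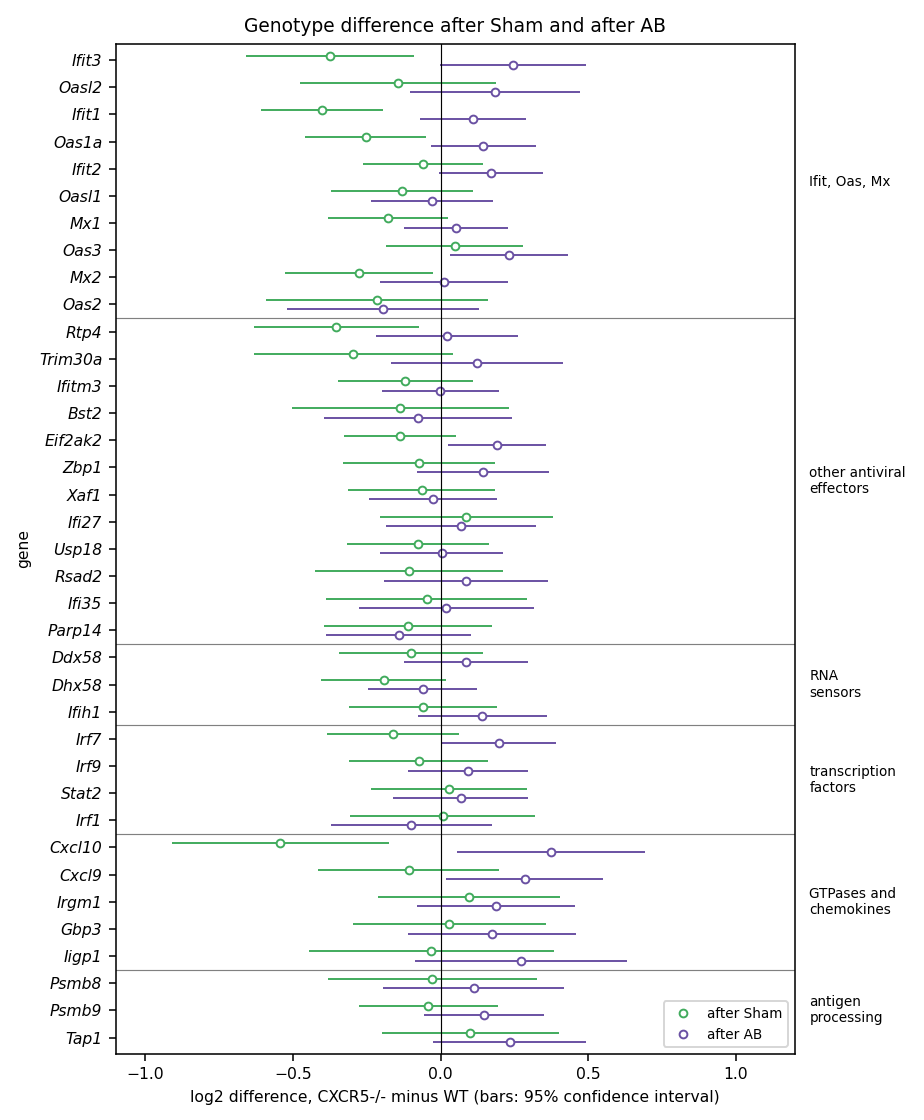
Log2 difference of CXCR5-/- minus WT hearts (x axis, with 95% confidence intervals of the fit) for the 37 measured genes (y axis, by class) after Sham (green) and after AB (purple). Most green points lie left of 0 and most purple points right of it, and no point passed the adjusted p of 0.05.

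Other genes of the pathway were read from lists of the same kind. Of 13 interferon ligands none passed the test in either genotype. Ifng, the gamma ligand, lay at 4.12, 4.09 and 4.40 in WT Sham and 4.54, 4.53, 4.42 and 4.64 in WT AB arrays (0.33, adjusted p = 0.0559), and in CXCR5-/- hearts at 4.43, 4.29 and 4.45 and 4.12, 4.41, 4.41 and 4.46. Its Sham and AB arrays did not overlap in WT and overlapped in CXCR5-/- hearts, and the difference of the changes was -0.37 (adjusted p = 0.9998). In WT hearts the groups did not overlap for 1 of the 13 ligands with AB higher and for 1 with AB lower. The shares of all genes were 9.39% and 7.74%. The next smallest p in WT hearts was that of Ifna9 (-0.23, adjusted p = 0.153), and the smallest in CXCR5-/- hearts was that of Ifna12 (0.23, adjusted p = 0.201), both alpha genes. Ifnb1, the beta ligand, lay between 3.58 and 4.13 in all 14 arrays, with a change of 0.20 in CXCR5-/- hearts (adjusted p = 0.281). The mean levels of Ifnb1 (3.84), Ifna9 (3.73) and Ifna12 (2.42) lay under 4.13, the 30th percentile of all probe sets. Those of Ifna4, Ifna11, Ifna13, Ifne and Ifnk did as well, and that of Ifng (4.38) lay close above 4.13. At such dim levels the lack of a call does not show that a ligand was unchanged. Of 13 receptor and signalling genes, Ifngr1, a chain of the gamma receptor, rose in both genotypes, by 0.49 (SE 0.13, adjusted p = 0.0195) in WT and 0.89 (SE 0.13, adjusted p = 0.000125) in CXCR5-/- hearts. Jak1, a kinase of both receptors, fell in both, by 0.45 in WT (adjusted p = 0.00636) and by 0.39 in CXCR5-/- hearts (0.0112). Ifnar2, a chain of the type I receptor, rose in CXCR5-/- hearts by 0.34 (SE 0.094, adjusted p = 0.0204). Of these 13, 1 rose and 1 fell in WT hearts, near the shares of all genes (5.10% and 4.22%). In CXCR5-/- hearts 2 rose and 1 fell, beside 8.28% and 5.86% of all genes.

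Of 16 genes of nucleic acid sensing and interferon induction, 1 rose in WT hearts (5.10% of all genes did), Irf5 (0.41, SE 0.12, adjusted p = 0.0372). The 3 that rose in CXCR5-/- hearts were Tlr7, an endosomal RNA receptor (0.86, SE 0.20, adjusted p = 0.0064), Sting1, the adaptor of DNA sensing (0.68, SE 0.16, adjusted p = 0.00787), and Irf5 (0.39, SE 0.12, adjusted p = 0.0348). Mavs, the adaptor of the RNA sensors, fell by 0.43 (adjusted p = 0.0268). Of 40 other type I style genes, 6 rose and none fell in WT hearts, led by Ifitm2, a neighbour and relative of Ifitm3 (0.75, SE 0.12, adjusted p = 0.000582), Parp9 (0.36, SE 0.085, adjusted p = 0.0125), Isg20, an RNA exonuclease (0.67, SE 0.18, adjusted p = 0.0217), and Slfn2 (0.39, SE 0.10, adjusted p = 0.0231). Ifitm2 had 3 probe sets, and only that with the highest mean is given. Whether its probes also bind transcripts of Ifitm3 was not tested. After AB in CXCR5-/- hearts 17 rose and 1, Pnpt1 (-0.39, SE 0.12, adjusted p = 0.0307), fell, and the median was 0.22. Led by p, those that rose were Ifitm2 (0.82, SE 0.12, adjusted p = 0.000138), the cytidine deaminase Apobec3 (0.73, SE 0.11, adjusted p = 0.000296), Slfn8 (0.64, SE 0.13, adjusted p = 0.00249) and Slfn1 (0.59, SE 0.12, adjusted p = 0.00293). Of 23 other interferon-gamma style genes, 3 rose in WT hearts: B2m, the light chain of MHC class I (0.48, SE 0.10, adjusted p = 0.00476), the factor Irf8 (0.35, SE 0.087, adjusted p = 0.0171) and the immunoproteasome subunit Psmb10 (0.49, SE 0.15, adjusted p = 0.0428). In CXCR5-/- hearts B2m (0.59, SE 0.10, adjusted p = 0.00059) and Psmb10 (0.54, SE 0.15, adjusted p = 0.0187) rose, and Cd274, the checkpoint ligand PD-L1, fell by 0.59 (adjusted p = 0.0126). These 2 of 23 stand beside 8.28% of all genes called higher, and are near that share. The median of these 23 was 0.011 in WT and -0.047 in CXCR5-/- hearts.

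Markers of other cells moved with AB too. The counts below stand beside 5.10% of all genes that rose and 4.22% that fell in WT hearts. In CXCR5-/- hearts 8.28% of all genes rose and 5.86% fell. Of 12 macrophage markers, 7 rose in WT and 9 in CXCR5-/- hearts, led by Cd68 (0.86 and 1.09), C1qb (0.69 and 1.01) and C1qc (0.56 and 0.82). Their mean per array was 6.98 to 7.08 in WT Sham, 7.38 to 7.52 in WT AB, 6.78 to 6.92 in CXCR5-/- Sham and 7.41 to 7.75 in CXCR5-/- AB arrays, with no overlap of AB and Sham. Not every macrophage marker went up: 11 of 12 lay above 0 in each genotype. The lowest change was -0.54 in WT, where 1 marker lay lower at an unadjusted p under 0.05 by limma, and -0.35 in CXCR5-/- hearts. Of 5 fibroblast markers, 2 rose in WT and 5 in CXCR5-/- hearts. The fibroblast mean per array was 8.72 to 8.89 in WT Sham, 9.08 to 9.70 in WT AB, 8.69 to 8.94 in CXCR5-/- Sham and 9.42 to 9.67 in CXCR5-/- AB arrays. It too showed no overlap of AB and Sham, and a fit with the fibroblast mean as a covariate was not run. Of the 7 ventricular muscle markers, 1 fell in WT and 3 in CXCR5-/- hearts. Their mean lay at 12.29 to 12.31 in WT Sham, 12.07 to 12.15 in WT AB, 12.28 to 12.29 in CXCR5-/- Sham and 11.99 to 12.15 in CXCR5-/- AB arrays, also with no overlap of AB and Sham, and the part of this in the members' changes was not tested. None of 6 T cell, 8 NK and cytotoxic cell, 7 dendritic cell or 3 B cell markers was called in either genotype, and 1 of 5 neutrophil markers, Csf3r, rose in WT hearts. Mean levels lay under 4.13, the 30th percentile of all probe sets, for the NK and cytotoxic cell markers Ncr1, Klrb1c, Klrk1, Gzma, Gzmb and Eomes. The same held for Xcr1, Clec9a and Ccr9 of dendritic cells, Ms4a1 and Cd79a of B cells, Cd3d of T cells, and S100a8 and Ly6g of neutrophils. At such dim levels the lack of a call does not show that these cells were unchanged. The T cell marker mean was 4.37 to 4.67 in WT Sham and 4.67 to 5.29 in WT AB arrays, and 4.42 to 4.77 and 4.50 to 4.92 in CXCR5-/- arrays. With the macrophage mean as a covariate, the changes of Bst2 (0.012) and Xaf1 (0.0015) in CXCR5-/- hearts were near 0, and that of Cxcl10 was 0.33 in WT and 1.02 in CXCR5-/- hearts. Since the macrophage mean separates AB from Sham, its part and that of AB cannot be told apart here.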

How the data were processed

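RNA from the LV of 14 male mice was hybridised to Affymetrix mouse gene ST 1.0 arrays. The authors deposited log2 values made by robust multi-array average (RMA), whose version and settings are not given in the sources used here, so that background correction, scaling between arrays and summary over probes were done before deposit. The labels and the paper name different RNA extraction kits. Of 34760 probe sets, 21640 carried 1 gene symbol, 1321 several and 11799 none in the annotation used, and 21553 of the 21640 matched a RefSeq symbol. Each of 19937 genes was read from its probe set with the highest mean (954 had several). Probes cannot be told apart where genes are near copies.

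The values were fitted in R 4.3.3 with limma 3.58.1, the 4 group means and 1 spread shared by all 14 arrays being estimated together (10 residual and 7.13 prior degrees of freedom). The 5 comparisons were Benjamini-Hochberg adjusted over all genes at 0.05. The script was checked on simulated data. The members, classes and lists were chosen with earlier results of these data known. Values per array are given for the 12 called members with the smallest p, the 3 largest changes of each comparison and the 5 smallest p for the difference of responses, of pathway lists up to 4 called genes and of marker lists up to 3. Genes named to complete a count, or to place a class, were named after their values were seen.

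The arrays are separate mice, and their number limits the precision. Replicate numbers of the labels were checked as pairs over all genes. Deviations correlated at -0.06 to 0.26 between WT Sham and AB, -0.11 to 0.13 in CXCR5-/-, 0.03 to 0.45 between Sham groups and 0.13 to 0.22 between AB groups, where every pair lay above 0.1. With the replicate number as a block 0 members were called between the AB groups, as without it. The alternatives tried were trended and robust variances, weights for arrays, dropping dim probe sets (mean under the 30th percentile, 4.13), quantile or median scaling, averaging or keeping every probe set, fitting only the groups compared, the block, atrial or macrophage markers as covariates, dropping the 3 arrays with the highest Myl7, significance analysis of microarrays over all 35, 70 or 20 permutations, and each array left out. A term for replicates 1 and 2 was added after the data were seen. No deposited column was left unused (0).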

Additional observations from a re-analysis of the deposited data

Results flagged for a closer look

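In groups of 4 arrays, a value was picked out where its gap to the nearest other value took up most of the group's range. Of 74 groups tested (37 genes in the AB groups of both genotypes), 4 held such a value, and chance alone gives about 1 in 20, or 3.7. Iigp1 lay at 6.59 in CXCR5-/- AB replicate 1 and at 7.40 to 7.54 in the other 3. Usp18, which removes ISG15 from proteins, lay at 6.13 in CXCR5-/- AB replicate 3 against 5.67 to 5.75 in the others, and at 5.70 in WT AB replicate 3 against 5.84 to 5.87. Stat2 lay at 7.06 in WT AB replicate 4 against 6.90 to 6.93. In the limma fit of all 14 arrays none of these genes was called in any comparison. Without CXCR5-/- AB replicate 1, Iigp1 was called lower after AB in WT hearts (limma adjusted p = 0.00756), as it was without WT Sham replicate 1 and under 6 other settings.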

How the results depend on the processing

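Members called higher numbered 5 in WT and 16 in CXCR5-/- hearts, and 0 were called lower. In WT hearts the count higher was 10 with array weights, 9 with the replicate block, 8 by significance analysis of microarrays and 0 with macrophage markers as a covariate, and 3 to 7 without any 1 array (3 without WT Sham replicate 2 or 3). The replicate block took the CXCR5-/- count to 18. In CXCR5-/- hearts the count was 7 without the 3 arrays with the highest Myl7, 0 with macrophage markers as a covariate and 13 to 18 without any 1 array. In WT hearts 1 member, Iigp1, was called lower with array weights, without dim probe sets, when only the compared groups were fitted, with the replicate block, after adding a term for replicates 1 and 2, and by significance analysis of microarrays, and 0 to 1 without any 1 array (without WT Sham replicate 1 or CXCR5-/- AB replicate 1). Zbp1 in CXCR5-/- hearts changed sign to -0.062 with the macrophage covariate. In the other 3 comparisons 0 members were called in every setting run (the difference of responses could not be run by significance analysis of microarrays or in the compared groups alone), and the medians of the members kept their sign and moved by less than the spread between arrays. The replicate numbers were not shown to pair Sham with AB mice, and a count under the block is given as a value only. Over all genes, array weights gave 1775 higher and 1633 lower in WT (1016 and 842 otherwise) and 2632 and 2138 in CXCR5-/- hearts (1650 and 1168). The block gave 1354 and 1282 in WT, and the counts there were 560 and 465 without WT Sham replicate 2 and 611 and 391 without WT Sham replicate 3. Scaling moved the median of all genes by under 0.1. Array number and, for dim probe sets such as Mx1, signal over background limit what could be called.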

Other observations

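Within the AB groups, some genes, members and others alike, ordered the arrays the same way in both genotypes. Bst2, Ifi27, Ifi35, Ifit3 and Psmb8 lay higher in replicates 1 and 2 than in replicates 3 and 4 of both genotypes (5 of 37 members, and 9.43% of all genes). Irf9, Oas2, Tap1 and Trim30a lay lower in replicates 1 and 2 in both (4 of 37, and 11.5% of all genes). Both counts are near the shares of all genes, so the pattern is not particular to the members. With a term for replicates 1 and 2, 1291 of all genes were called higher and 1272 lower after AB in WT hearts, against 1016 and 842 without it. In CXCR5-/- hearts the counts were 1978 and 1580, against 1650 and 1168. What the numbers stand for is not given in the sources used here.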
